A study of Mus musculus with 9 samples.

Results

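The levels of 10 genes of the formative epiblast and of early neural cells were followed in mouse embryonic stem (ES) cells. The genes are a list of names whose rule uses no measured value, drawn up with earlier results of these data known. They are Otx2, Pou3f1, Fgf5, Zic2, Zic5, Sox1, Sox3, Sox11, Pax6 and Grhl2, which makes 10 of the 52636 Ensembl gene IDs in the deposited count table. Each symbol matched 1 ID. Of the 10, 9 encode transcription factors, and Fgf5 encodes a secreted growth factor, so the set is broader than transcription factors alone. All 10 had enough reads to be tested.

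RNA was sequenced from 9 libraries, 3 from each of 3 ES cell lines. Nanog-null cells (44C6, titled NanogKO, genotype N{delta}) lack Nanog by their title, which names no added gene. The titles name a line with added Esrrb (44J, NanogKO:Esrrb), here called Esrrb cells, and a line with Esrrb and Nanog (44JN, NanogKO:Esrrb:Nanog), here called Esrrb+Nanog cells. One genotype, N{delta}:cE:iN, is given for both of these lines. All cells grew in serum with leukaemia inhibitory factor (LIF), had no treatment, and were sorted as PECAM positive and PDGFRA negative. Each group is 1 line, so the added gene and any other difference between lines cannot be told apart. Nothing in the labels tells whether the 3 replicates of a line came from different cultures, so each p-value reflects how far these libraries vary, which may be technical only.

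The formative state lies between the naive epiblast of the blastocyst and the primed epiblast that is ready for gastrulation. Cells entering it switch on Otx2, Pou3f1 and Fgf5, and a Grhl2-dependent set of epithelial genes keeps the epiblast a sheet. Zic, Sox and Pax factors then take part in forming the neural plate, where SoxB1 proteins (Sox1, Sox2, Sox3) hold cells as progenitors. In serum with LIF most ES cells are naive, and a minority drifts towards the formative state. Nanog and Esrrb are both factors of the naive network. In bulk RNA such as this, fewer cells that express a gene and less RNA per cell cannot be told apart.

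Library totals ran from 21808120 to 32496267 counts. Nanog was at 14.3 to 16.0 CPM (read counts scaled to library size) in Nanog-null cells, 29.7 to 35.1 in Esrrb cells and 221 to 333 in Esrrb+Nanog cells, and Esrrb was at 253 to 303, 692 to 949 and 1056 to 1151 CPM. By the edgeR test described below, Esrrb was also higher in Esrrb+Nanog than in Esrrb cells (log2 change 0.46 ± 0.10 SE, adjusted p = 0.0133). Nanog reads were already higher in Esrrb than in Nanog-null cells (1.09 ± 0.14, adjusted p = 5.92e-05). The lines with added Esrrb thus differed in the level of both genes. The summed level of 7 ES cell markers, Pou5f1 and Sox2 among them, was 3253 to 3520, 4022 to 4302 and 3603 to 3744 CPM in the 3 lines. Markers of other cell types were low but not absent. The sum over 7 trophoblast markers was 92.45 to 239.8 CPM in Nanog-null cells, 28.2 to 53.4 in Esrrb cells and 38.8 to 44.4 in Esrrb+Nanog cells, mostly from keratins and Tfap2c. Over 6 fibroblast markers it was 13.5 to 83.1, 7.34 to 13.7 and 7.57 to 14.1 CPM. Nanog-null replicate 2 held the highest of both sums. Over 7 primitive endoderm markers the sum was 11.5 to 35.9, 27.5 to 62.9 and 13.85 to 22.2 CPM, highest in Esrrb replicate 2. Pdgfra, against which the cells were sorted, was at 0.463 to 4.43, 5.84 to 14.1 and 1.77 to 3.86 CPM. Elf5, a trophoblast factor, had 0 to 3 counts in any library, with none in Esrrb cells. The fibroblast gene Postn had 0 to 6, with none in either line with added Esrrb. Counts this low tell little. Thy1, of the same fibroblast list, went the other way, at 2.27, 8.96 and 9.24 CPM on average in the 3 lines. Elf5, Postn, Thy1, Tfap2c, the keratins and, further on, Gata6 were named after their values were seen. The 6 primitive streak markers summed to between 9.41 and 12.5 CPM in every library.

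Levels of different genes were set side by side only per length, as CPM per kb of merged exons. In Nanog-null cells Pou3f1 (16.7 CPM per kb), Otx2 (16.5), Sox11 (13.6) and Grhl2 (11.1) were the most abundant of the 10. Zic2 followed at 7.82, Sox3 at 4.63 and Zic5 at 3.63 CPM per kb, while Fgf5, Sox1 and Pax6 lay at 1.08, 1.07 and 0.929. In Esrrb cells Otx2 stood first at 29.2 CPM per kb and Zic2 second at 6.37. Esrrb+Nanog cells had Zic2 first at 12.95 CPM per kb, then Otx2 at 9.35 and Zic5 at 3.91. Fgf5 was last in both lines with added Esrrb, at 0.0467 and 0.0494 CPM per kb.

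**Figure D1:**
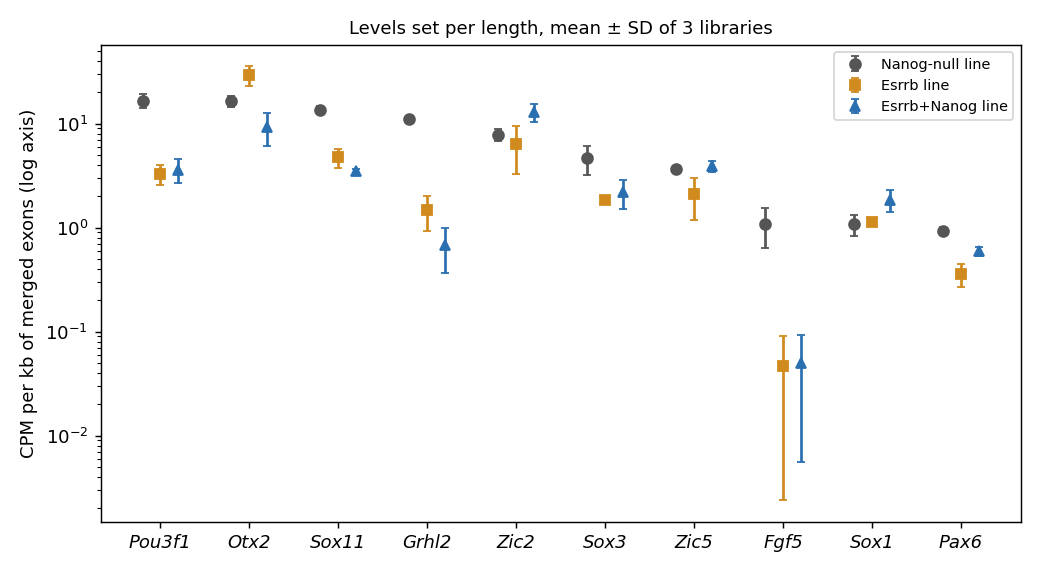
Mean level of each gene in each line, in CPM per kb of merged exons on a log axis, with bars of 1 SD over 3 libraries. Pou3f1, Otx2, Sox11 and Grhl2 lead in Nanog-null cells (grey circles), and Fgf5 is near 0.05 CPM per kb in the lines with added Esrrb (orange squares and blue triangles).

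Against Nanog-null cells, 7 of the 10 genes fell in Esrrb cells, 1 rose (Otx2) and 2 (Zic2 and Sox1) did not pass the test. The test was the quasi-likelihood test of edgeR over all 16198 tested genes, with a Benjamini-Hochberg adjusted p below 0.05 as the threshold. Of all tested genes 48.5% passed it in this comparison, and 24.2% passed as lower. The median log2 change was -1.36 over the 10 genes and 0.01 over all tested genes. Esrrb+Nanog cells against Nanog-null cells also gave 7 lower and 1 higher (Sox1), where 54.4% of all genes passed and 27.2% passed as lower, with medians of -0.95 and 0.00. The libraries did not overlap for 8 of the 10 genes in the first of these comparisons, against 58.4% of all tested genes, and for 9 in the other, against 61.9%. These 2 comparisons share the 3 Nanog-null replicates. Fgf5 was tested because of its level in Nanog-null cells, so its fall was a condition of its being tested at all.

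Esrrb+Nanog cells against Esrrb cells gave another picture. Zic2, Zic5, Sox1 and Pax6 rose, Otx2 and Grhl2 fell, and 4 did not pass, with 13.2% of all genes past the threshold (5.43% higher and 7.75% lower). The libraries did not overlap for 5 of the 10 genes, against 31.6% of all genes. Otx2 held its call under every alternative run. The other 5 calls were less firm: with 1 library left out, the number of the 10 genes called was 1 without Esrrb replicate 1, 4 without Esrrb replicate 3 or Nanog-null replicate 3, 3 without Esrrb+Nanog replicate 1, and 2 without Esrrb+Nanog replicate 2 or replicate 3. Without Esrrb replicate 2 it was 7. It was 3 when only the 2 lines compared were fitted.

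**Figure D2:**
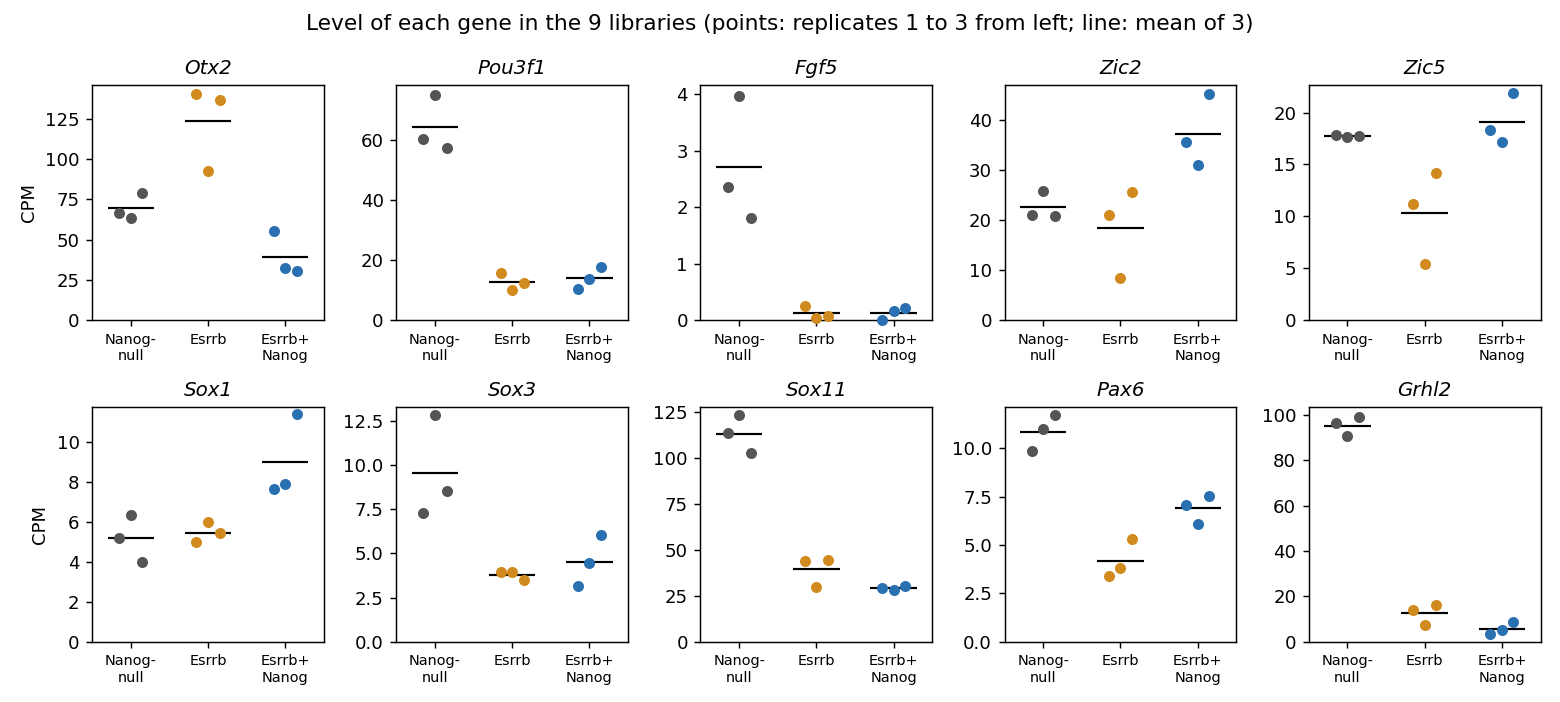
CPM of each gene in the 9 libraries, 1 panel per gene with its own linear axis from 0; points are replicates 1 to 3 from left to right and the line is their mean. Pou3f1, Fgf5, Sox3, Sox11, Pax6 and Grhl2 are higher in every Nanog-null library than in every other library, and Otx2 is highest in Esrrb cells.

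**Figure D3:**
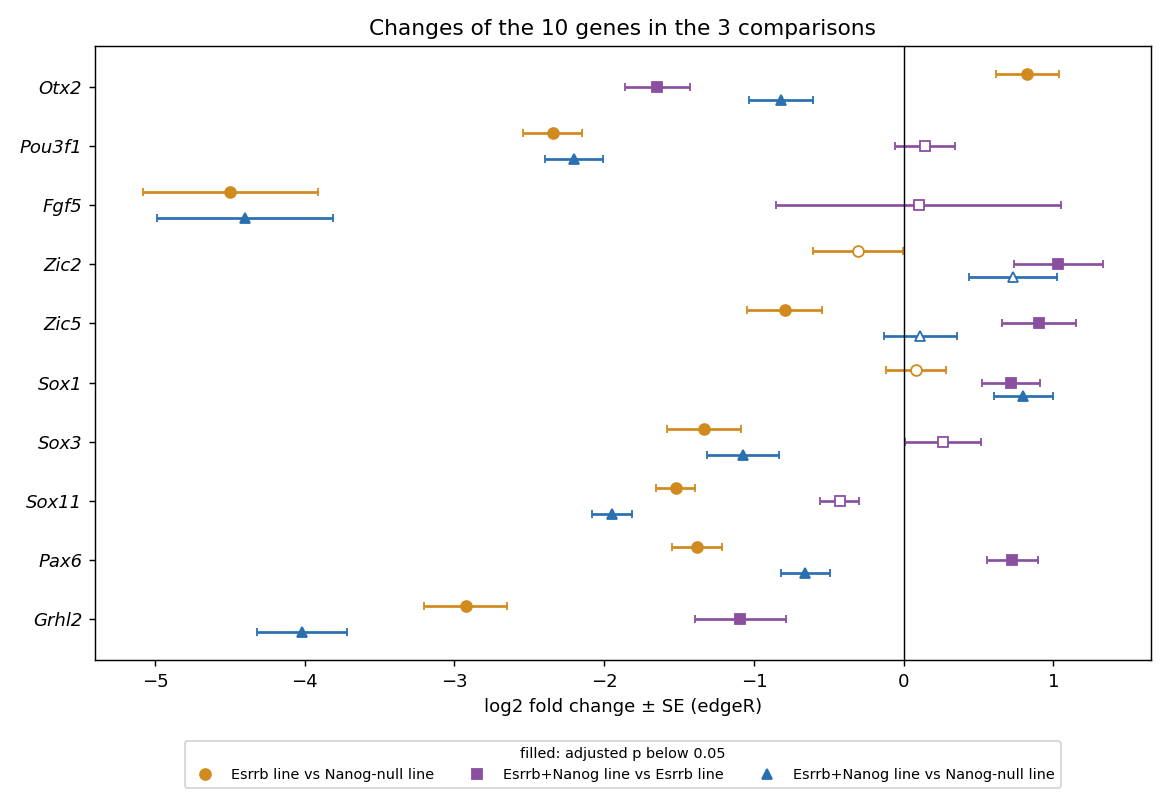
Log2 fold change of each gene with its standard error in the 3 comparisons; filled symbols passed an adjusted p of 0.05. Otx2 is the only one of the 10 that is higher in Esrrb cells and lower in Esrrb+Nanog cells than in Nanog-null cells.

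Set by their calls in the 3 comparisons, the 10 genes followed 7 different patterns. Pou3f1, Fgf5, Sox3 and Sox11 were lower in both lines with added Esrrb, with no call between those lines, which is also the pattern of 2748 of the tested genes (17%). Grhl2 fell in all 3 comparisons, as did 2.64% of genes. Pax6 fell and then regained part of its level (0.463% of genes), and Zic5 fell and then rose, with no call between Esrrb+Nanog and Nanog-null cells (0.945%). Zic2 was called only between the lines with added Esrrb (0.383%), and Sox1 was higher in Esrrb+Nanog cells than in either other line (2.02%). The pattern of Otx2 was shared with 33 other genes, 34 in all or 0.21%. The comparisons share libraries, so these shares describe the table and test nothing.

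The positions of the genes are given for mm10 from GENCODE M21. RefSeq (GRCm38.p6, the same build) gave promoter sequences for 6 of the 10 genes, Otx2, Fgf5, Zic5, Sox1, Sox11 and Pax6, in 10 windows of the 250 bases before a transcript start. The windows of 4 genes that overlap no annotated exon of the gene are shown, 3 that were lower in Esrrb cells and Otx2, which was higher. They are written 5′ to 3′ on the gene's strand, with any searched motif in capitals, and Otx2 and Pax6 have further starts. The Otx2 start used lies 6175 bases downstream of the gene start in GENCODE, so its window is inside the gene. The starts of Fgf5, Sox11 and Pax6 lie at the gene start or shortly before it.
Fgf5, plus strand of chr5:98253934-98254183: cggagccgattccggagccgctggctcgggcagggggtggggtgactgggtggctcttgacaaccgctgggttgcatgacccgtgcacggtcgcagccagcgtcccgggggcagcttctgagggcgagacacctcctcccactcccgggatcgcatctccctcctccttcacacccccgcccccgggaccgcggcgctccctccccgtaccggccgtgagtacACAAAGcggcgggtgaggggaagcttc
Sox11, minus strand of chr12:27342719-27342968: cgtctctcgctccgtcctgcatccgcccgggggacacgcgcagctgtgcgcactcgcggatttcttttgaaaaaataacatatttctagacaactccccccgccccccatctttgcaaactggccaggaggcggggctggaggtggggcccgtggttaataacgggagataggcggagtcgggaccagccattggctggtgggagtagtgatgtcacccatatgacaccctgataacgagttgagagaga
Pax6, plus strand of chr2:105668646-105668895: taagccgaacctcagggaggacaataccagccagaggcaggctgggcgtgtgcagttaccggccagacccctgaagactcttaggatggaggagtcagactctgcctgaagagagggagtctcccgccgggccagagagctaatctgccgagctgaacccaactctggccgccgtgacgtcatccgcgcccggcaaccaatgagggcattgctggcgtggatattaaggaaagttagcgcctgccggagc
Otx2, minus strand of chr14:48667645-48667894: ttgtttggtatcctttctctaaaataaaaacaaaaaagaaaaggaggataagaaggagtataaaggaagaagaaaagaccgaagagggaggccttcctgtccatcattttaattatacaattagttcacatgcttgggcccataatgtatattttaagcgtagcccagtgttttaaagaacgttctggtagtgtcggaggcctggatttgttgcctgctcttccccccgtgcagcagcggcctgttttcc
Both strands were searched for the core site of ESRRB, AAGGTCA, for the longer TCAAGGTCA that contains it, for the OTX motif TAATCC, for the octamer ATGCAAAT of POU factors and for the SOX core ACAAAG. None of the 10 windows held AAGGTCA, which 4.08% of all 32851 promoter windows held, or TCAAGGTCA (0.387%) or the octamer (1.60%). The SOX core was in the Fgf5 window shown and in a second Pax6 window, against 16.5% of all windows, and TAATCC was in 1 further Otx2 window, against 6.25%. The Fgf5 window was 70.8% G and C with 24 CpG sites, and the Otx2 window shown, inside the gene, 42.0% with 6, against medians of 52.4% and 6.0 over all windows.

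Otx2 (ENSMUSG00000021848, chromosome 14, 48657677 to 48673819, minus strand) encodes a homeodomain factor that redirects enhancers as cells leave the naive state and later patterns the head. It was at 66.4, 63.7 and 78.7 CPM in Nanog-null cells, 141, 92.7 and 137 CPM in Esrrb cells and 55.5, 32.6 and 30.3 CPM in Esrrb+Nanog cells. No 2 lines overlapped, and Esrrb cells were highest. The rise from Nanog-null cells to Esrrb cells was 1.77-fold (log2 change 0.83 ± 0.21 SE, adjusted p = 0.00659). From Esrrb cells to Esrrb+Nanog cells the log2 change of Otx2 was -1.65 ± 0.22 (adjusted p = 0.000642), and it ended below Nanog-null cells (log2 change -0.82 ± 0.22, adjusted p = 0.00669). The overlapping Otx2os1, on the other strand, had 0 to 14 counts in any library against 810 to 4068 for Otx2.

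Pou3f1 (ENSMUSG00000090125, chromosome 4, 124656807 to 124660655), also called Oct6, is a single-exon POU factor gene that works beside OCT4 in the formative epiblast and promotes neural fate. Its level was 60.2, 74.95 and 57.3 CPM in Nanog-null cells, 15.7, 10.0 and 12.3 in Esrrb cells and 10.3, 13.8 and 17.6 in Esrrb+Nanog cells. Every Nanog-null library was above every other, and the lines with added Esrrb overlapped. Pou3f1 fell by 2.34 on the log2 scale in Esrrb cells (SE 0.20, adjusted p = 2.97e-06) and the log2 change was -2.20 ± 0.20 in Esrrb+Nanog cells (adjusted p = 3.07e-06). Between the lines with added Esrrb the log2 difference was 0.14 ± 0.20 (adjusted p = 0.699). Its relatives Pou3f2 and Pou3f3, neural POU genes, were below 1 CPM on average in every line. Pou3f3 averaged 0.354, 0.466 and 0.992 CPM in Nanog-null, Esrrb and Esrrb+Nanog cells. It was called as higher in Esrrb+Nanog cells than in Nanog-null cells (adjusted p = 0.00364) and than in Esrrb cells (adjusted p = 0.0483). Pou3f2 was at 0.381 ± 0.121 CPM in Esrrb cells and 0.130 ± 0.0123 in Nanog-null cells (SD, n = 3). It had enough reads for the test only in lines with added Esrrb, so its call as higher was a condition of its being tested. Utp11, a ribosome biogenesis gene 17504 bases from Pou3f1, was at 53.2 ± 0.931, 49.9 ± 1.00 and 51.7 ± 1.35 CPM and passed in no comparison.

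Fgf5 (ENSMUSG00000029337, chromosome 5, 98254184 to 98277030) encodes a fibroblast growth factor that is the classical marker of the epiblast after implantation. It had 51, 103 and 54 counts in Nanog-null cells, 7, 1 and 2 in Esrrb cells and 0, 4 and 6 in Esrrb+Nanog cells. Summed by line, that was 208, 10 and 10 counts, or 2.69 CPM (95% counting interval 2.33 to 3.08), 0.115 (0.0553 to 0.212) and 0.124 (0.0596 to 0.228). The intervals cover counting error only. The fitted log2 changes against Nanog-null cells were -4.50 ± 0.58 (adjusted p = 7.41e-05) and -4.40 ± 0.59 (adjusted p = 6.85e-05), and the first was -5.58 without Esrrb replicate 1. Without Nanog-null replicate 2, the library with the most Fgf5 counts and the highest trophoblast and fibroblast marker sums, it was -4.12. At 10 counts a line, a difference between the Esrrb and Esrrb+Nanog lines was not detectable.

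A receptor and a second ligand of FGF signalling went in different directions. Fgfr2, a receptor gene, fell from 81.6 ± 6.49 CPM (SD, n = 3) in Nanog-null cells to 18.2 ± 5.56 in Esrrb cells and 4.90 ± 0.495 in Esrrb+Nanog cells, and it passed the test at both steps (adjusted p = 1.59e-06 and 0.000106). Fgf4, the ligand that naive cells make, rose from 70.7 ± 9.80 to 160 ± 30.3 and lay at 162 ± 15.8 CPM (log2 change 1.18 ± 0.14 in Esrrb cells, adjusted p = 3.70e-05).

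Zic5 (ENSMUSG00000041703, 122456795 to 122465677, minus strand) and Zic2 (ENSMUSG00000061524, 122475435 to 122479852, plus strand) lie head to head on chromosome 14, 9757 bases apart. Both encode zinc finger factors, and Zic2 holds enhancers ready in the epiblast before neural tube formation. Zic2 was at 21.0, 25.7 and 20.8 CPM in Nanog-null cells, 21.0, 8.40 and 25.55 in Esrrb cells and 35.6, 31.1 and 45.2 in Esrrb+Nanog cells. Zic5 was at 17.8, 17.6 and 17.8, at 11.2, 5.41 and 14.2, and at 18.35, 17.2 and 21.8 CPM in the same order. In both genes Esrrb replicate 2 was the lowest of the 9 libraries, and every Esrrb+Nanog library was above every Esrrb library. Between them lies the noncoding 2610035F20Rik, which was at 1.16 CPM in Esrrb replicate 2 against 2.42 and 2.997 in the other Esrrb libraries.

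Zic2 rose from Esrrb cells to Esrrb+Nanog cells by 2.05-fold (log2 change 1.03 ± 0.29, adjusted p = 0.0394) and Zic5 by 1.87-fold (0.91 ± 0.25, adjusted p = 0.0337). Without Esrrb replicate 2 these changes were 0.68 (adjusted p = 0.0136) and 0.59 (0.0116), still past the threshold. Zic2 lost its call without Esrrb replicate 1 (adjusted p = 0.0804), any Esrrb+Nanog replicate (0.0591 to 0.121) or Nanog-null replicate 3 (0.0554), with DESeq2 (0.0596) and with only the 2 lines compared (0.0675). Zic5 lost it without Esrrb replicate 1 (0.0799), without any Esrrb+Nanog replicate (0.0521 to 0.101), and with only the 2 lines compared (0.0651). 2610035F20Rik rose in the same step (log2 change 1.11 ± 0.31, adjusted p = 0.0361).

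Against Nanog-null cells, Zic5 fell in Esrrb cells (log2 change -0.80 ± 0.25, adjusted p = 0.0199, and -0.48 without Esrrb replicate 2, adjusted p = 0.0122). Zic2 in Esrrb cells differed from Nanog-null cells by -0.31 ± 0.30 (adjusted p = 0.425), a value that passed with no low-count filter (0.0167) and turned to 0.05 without Esrrb replicate 2. In Esrrb+Nanog cells all 3 Zic2 libraries were above all Nanog-null libraries, but the test missed its threshold (log2 change 0.73 ± 0.29, adjusted p = 0.0523). It passed in 6 of 16 alternatives: with library totals alone (0.0454), with no low-count filter (6.44e-11), with only the 2 lines compared (0.00145), with a replicate block (0.0416), and without Esrrb replicate 2 (0.000855) or replicate 3 (0.0293). The other 10 gave 0.0521 to 0.17. The run with no filter gave an adjusted p far below any other at much the same log2 change. That change was 0.68 to 0.75 over the alternatives other than leaving out 1 library. Why its adjusted p was so low was not tested, so that run adds little to the call. Esrrb replicate 2 also had the highest primitive endoderm marker sum, 62.9 CPM against 27.5 and 52.5 in the other Esrrb libraries. Gata6 was at 39.0 CPM there against 13.5 and 22.9. Every other marker of that sum was highest in replicate 3 among the Esrrb libraries. Pdgfra, for example, was at 5.84, 11.4 and 14.1 CPM in replicates 1 to 3. The part of primitive endoderm cells in the Zic values was not tested.

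**Figure D4:**
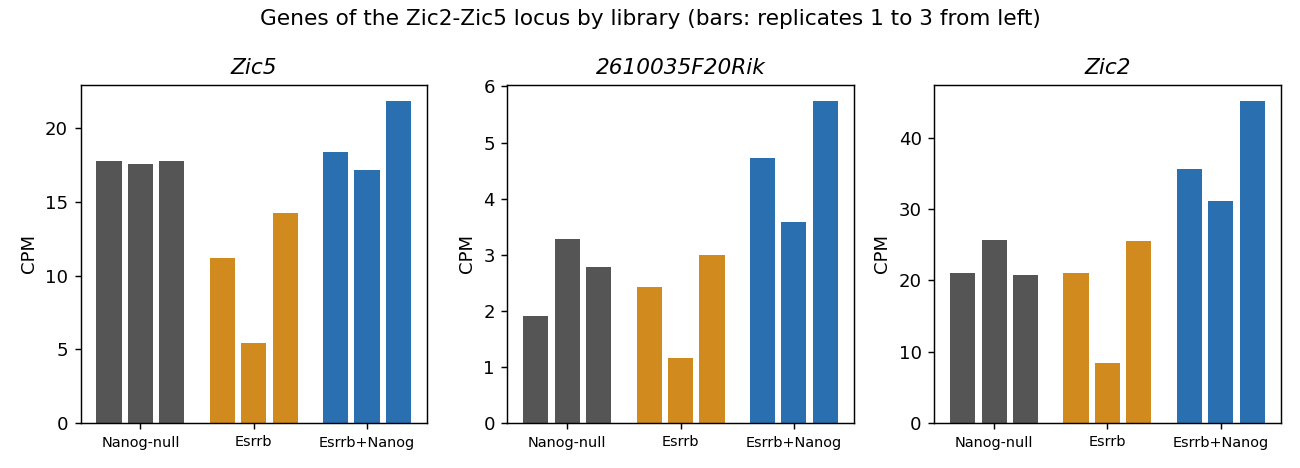
CPM of Zic5, the noncoding 2610035F20Rik between the Zic genes, and Zic2 in each library, as bars from 0 (replicates 1 to 3 of each line from left). Esrrb replicate 2 is the lowest bar in all 3 panels, and the Esrrb+Nanog bars are above every Esrrb bar.

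Of the Sox genes, Sox1 and Sox3 belong to the SoxB1 group of neural progenitor factors and Sox11 to the SoxC group, which acts as neurons form. Sox3 (ENSMUSG00000045179, X chromosome, 60891366 to 60893430) was at 7.28, 12.8 and 8.56 CPM in Nanog-null cells, 3.94, 3.93 and 3.50 in Esrrb cells and 3.14, 4.46 and 6.02 in Esrrb+Nanog cells. Its Nanog-null libraries lay above all others. The log2 changes were -1.33 ± 0.25 (adjusted p = 0.000885) and -1.07 ± 0.24 (adjusted p = 0.00282). Nanog-null replicate 2 was the highest library, with a log2 ratio of 0.70 to the other 2 for Sox3 against 0.00 in the median of all tested genes. Without it both calls were kept (-1.08 and -0.81).

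Sox11 (ENSMUSG00000063632, chromosome 12, 27334264 to 27342574) was at 114, 123 and 103 CPM in Nanog-null cells, 44.1, 29.9 and 44.45 in Esrrb cells and 29.5, 28.0 and 30.5 in Esrrb+Nanog cells. Nanog-null cells were again the highest, and the lines with added Esrrb overlapped through Esrrb replicate 2. The log2 changes were -1.52 ± 0.13 (adjusted p = 3.59e-06) and -1.95 ± 0.13 (adjusted p = 4.62e-07). Between the Esrrb and Esrrb+Nanog lines the log2 change was -0.43 ± 0.13 with an adjusted p of 0.0544. It passed with DESeq2 (0.0190), with no low-count filter (6.86e-05) and without Esrrb replicate 2 (-0.59, adjusted p = 0.000924). As for Zic2, the run with no filter lowered the adjusted p at much the same log2 change. That change was -0.43 to -0.36 over the alternatives other than leaving out 1 library.

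Sox1 (ENSMUSG00000096014, chromosome 8, 12395295 to 12400126), the SoxB1 gene most closely tied to the neural plate, was lower in none of the 3 comparisons by the test. Its levels were 5.19, 6.36 and 4.01 CPM in Nanog-null cells, 4.98, 5.98 and 5.45 in Esrrb cells and 7.64, 7.92 and 11.4 in Esrrb+Nanog cells. The first 2 lines overlapped, and every Esrrb+Nanog library was above both. It rose 1.74-fold over Nanog-null cells (log2 change 0.80 ± 0.20, adjusted p = 0.00469) and 1.64-fold over Esrrb cells (0.72 ± 0.20, adjusted p = 0.0323). The second call was lost without Esrrb replicate 1 (0.122) or 3 (0.0813), or without Esrrb+Nanog replicate 2 (0.0504) or 3 (0.119).

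The other SoxC and SoxB1 genes followed different directions. The SoxC genes Sox4 and Sox12 were lower in Esrrb cells than in Nanog-null cells, Sox4 at 63.3 ± 8.89 against 106 ± 14.9 CPM (adjusted p = 0.000249) and Sox12 at 70.5 ± 8.74 against 119 ± 11.2 (adjusted p = 5.87e-05), so that all 3 SoxC genes fell. Sox2, the SoxB1 gene that pluripotent cells need, was at 766 ± 46.85, 753 ± 63.15 and 620.2 ± 46.5 CPM in the 3 lines. It passed the test only in Esrrb+Nanog cells, against both other lines (adjusted p = 0.0360 and 0.00573), in the direction opposite to Sox1. Sox2, Sox12, Pou3f2, Pou3f3 and the Pax genes other than Pax6 were named after their values were seen. Of all 25 relatives of the 10 genes 16 were tested, of which 4 rose and 4 fell in Esrrb cells, and 7 rose and 7 fell in Esrrb+Nanog cells, each against Nanog-null cells (median log2 change -0.01 and -0.24). The 8 calls of 16 in Esrrb cells are close to the 48.5% of all tested genes, and the 14 calls in Esrrb+Nanog cells stand beside 54.4%. Between the lines with added Esrrb 3 rose and 5 fell, beside 13.2% of all tested genes called. These 8 calls became 2 to 5 without any 1 of the 6 libraries of these lines or without Nanog-null replicate 3.

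Pax6 (ENSMUSG00000027168, chromosome 2, 105668900 to 105697364) encodes a paired-box and homeodomain factor of the eye and forebrain. It was at 9.87, 10.98 and 11.7 CPM in Nanog-null cells, 3.42, 3.81 and 5.34 in Esrrb cells and 7.05, 6.11 and 7.53 in Esrrb+Nanog cells. The 3 lines did not overlap, with Esrrb cells lowest. Its log2 change in Esrrb cells was -1.38 ± 0.17 (adjusted p = 4.41e-05), and it was 1.65-fold higher in Esrrb+Nanog cells than there (log2 change 0.73 ± 0.17, adjusted p = 0.0162), which was still below Nanog-null cells (-0.66 ± 0.16, adjusted p = 0.00468). The middle call was lost without Esrrb replicate 1 (0.0767) or Esrrb+Nanog replicate 3 (0.0562). Its relatives Pax2, Pax3, Pax5 and Pax7 were below 1 CPM in every library and were not tested. Pax8 was at 0.259 ± 0.0247 CPM (SD, n = 3) in Nanog-null cells, 1.06 ± 0.466 in Esrrb cells and 2.82 ± 1.35 in Esrrb+Nanog cells. It had enough reads for the test only in the lines with added Esrrb, so its call as higher there than in Nanog-null cells was a condition of its being tested. Between the lines with added Esrrb it rose (adjusted p = 0.0256), although their libraries overlapped. Elp4, 3662 bases from Pax6 on the other strand, was at 21.7 ± 0.574, 23.2 ± 0.926 and 26.4 ± 0.845 CPM, and was called only as higher in Esrrb+Nanog than in Nanog-null cells (adjusted p = 0.0057).

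Grhl2 (ENSMUSG00000022286, chromosome 15, 37233036 to 37363569) encodes a grainyhead factor that opens enhancers of epithelial genes in the formative epiblast. Its level was 96.2, 90.8 and 98.8 CPM in Nanog-null cells, 14.0, 7.46 and 16.3 in Esrrb cells and 3.58, 5.15 and 8.82 in Esrrb+Nanog cells. Nanog-null cells stood far above the rest, and Esrrb replicate 2 lay within the range of Esrrb+Nanog cells. The log2 change of Grhl2 was -2.93 ± 0.28 in Esrrb cells (adjusted p = 7.14e-06) and -4.02 ± 0.30 in Esrrb+Nanog cells (adjusted p = 8.58e-07). The further fall between those lines (-1.09 ± 0.30, adjusted p = 0.0354) was lost without Esrrb replicate 1 or 3, Esrrb+Nanog replicate 1 or 2, or Nanog-null replicate 3 (0.0540 to 0.120), and with only the 2 lines compared (0.0760). The antisense gene Gm16136, which shares 169 exon bases with Grhl2, had 35 to 50 counts in Nanog-null cells and 2 to 13 elsewhere. The strand setting of the counting is not given, so reads counted for Gm16136 may come from Grhl2. Grhl2 itself had 97 to 2954 counts in any library. Ncald, 2605 bases from Grhl2, was at 0.770 ± 0.167, 0.486 ± 0.209 and 0.427 ± 0.196 CPM and passed in no comparison. The other annotated genes within 20 kb of any of the 10 genes were below 1 CPM in every library.

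The paralogs of Grhl2 did not share 1 direction. Grhl3, which acts in the surface ectoderm, rose from 14.4 ± 1.23 to 46.6 ± 6.32 CPM in Esrrb cells (log2 change 1.69 ± 0.12, adjusted p = 1.01e-06), with 35.15 ± 4.43 in Esrrb+Nanog cells. Grhl1 fell from 11.4 ± 1.07 to 5.94 ± 0.351 CPM, which was -0.94 ± 0.12 in log2 terms (adjusted p = 4.999e-05).

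Of 12 epithelial junction and epithelial identity genes, several of them known Grhl2 targets in epithelia, 11 were tested and 10 of those fell in Esrrb cells, beside 24.2% of all tested genes. The median log2 change was -2.78, against 0.01 over all tested genes. Esrp1, a splicing factor of epithelia, went from 85.3 ± 5.93 to 3.59 ± 1.32 CPM, a log2 change of -4.59 ± 0.23 with an adjusted p of 7.24e-08. The claudin gene Cldn6 went from 62.5 ± 10.2 to 6.76 ± 0.612 CPM, its relative Cldn7 from 20.5 ± 4.74 to 2.12 ± 0.265, and the adaptor gene Ap1m2 from 42.3 ± 0.249 to 6.16 ± 1.13. E-cadherin (Cdh1) fell less, from 418 ± 15.5 to 213 ± 19.4 CPM, and reached 162 ± 8.003 in Esrrb+Nanog cells. Spint1, a protease inhibitor gene, was the exception, at 37.0 ± 4.02, 42.5 ± 6.2 and 75.55 ± 9.00 CPM, and it rose in Esrrb+Nanog cells (adjusted p = 0.00111 against Esrrb cells). Against Nanog-null cells 10 fell and 1 rose in Esrrb+Nanog cells, beside 54.4% called and 27.2% lower of all tested genes. Between the lines with added Esrrb 1 rose and 1 fell, beside 13.2% of all tested genes called, and 4 were called without Esrrb replicate 2. Trophoblast keratins moved with this group: Krt18 was at 24.4, 102 and 44.4 CPM in Nanog-null cells and at 6.22 to 8.61 CPM in the others, and their part was not tested. Leaving out any 1 library gave 10 or 11 called genes in the first comparison and 11 or 12 in the last.

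The other genes of the formative and primed epiblast went both ways. Of 16, all tested, 7 fell and 6 rose in Esrrb cells, with a median log2 change of 0.17, where 24.2% of all tested genes fell and as many rose. Sfrp2, a Wnt antagonist gene, fell from 56.0 ± 6.68 to 23.55 ± 0.327 and 14.8 ± 0.811 CPM, and the zinc finger gene Zfp521, a promoter of neural fate, from 4.13 ± 0.631 to 0.791 ± 0.314 CPM. Tead2, a factor of Hippo signalling, fell from 140.1 ± 14.55 CPM to 73.6 ± 4.14 (adjusted p = 5.13e-06). Foxd3, which primed and naive cells both need, rose from 49.2 ± 1.27 to 102 ± 4.87 CPM. In Esrrb+Nanog cells against Nanog-null cells 7 fell and 3 rose, beside 54.4% called and 27.2% lower of all tested genes. In Esrrb+Nanog cells against Esrrb cells 5 fell and none rose (0 higher by edgeR), beside 13.2% called and 7.75% lower. Dnmt3a and Dnmt3b, the de novo DNA methyltransferase genes, were among the 5. Dnmt3a shared the calls of Otx2, at 181 ± 0.276, 315 ± 36.2 and 153 ± 14.6 CPM. Sall2 fell at each step, from 12.3 ± 1.95 to 4.43 ± 0.762 and 2.35 ± 0.404 CPM.

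Among 28 further early neural genes, 15 had enough reads to be tested. Of these, 9 fell and 1 rose in Esrrb cells, where 48.5% of all tested genes were called and 24.2% fell (median log2 change -1.07, against 0.01 over all genes). In Esrrb+Nanog cells against Nanog-null cells 7 fell and 3 rose, beside 54.4% called and 27.2% lower of all genes (median -0.40, against 0.00). Nanog-null replicate 2, which had the highest trophoblast and fibroblast marker sums, was also the highest library for this list, with a median centred log2 CPM of 0.82 against 0.01 and 0.21 in the other Nanog-null libraries. Without it 6 fell in Esrrb cells and 5 in Esrrb+Nanog cells, of 17 tested. The part of other cell types in these falls was not tested. Among the 9, Hesx1 and Irx3 had enough reads for the test only in Nanog-null cells and Olig3 in no Esrrb library, so that their falls were a condition of their being tested. Hesx1, a homeobox gene of the anterior neural plate, was at 1.69 ± 0.135 CPM in Nanog-null cells, 0.138 ± 0.0907 in Esrrb cells and 0.0490 ± 0.0182 in Esrrb+Nanog cells. Gli3, an effector of hedgehog signalling, fell from 24.3 ± 5.42 to 8.53 ± 1.22 CPM (adjusted p = 1.81e-05). The adhesion gene Ncam1 rose instead, from 3.54 ± 0.970 to 6.48 ± 1.01 and 25.02 ± 4.79 CPM, with a log2 change of 1.95 ± 0.19 between the lines with added Esrrb (adjusted p = 9.01e-05). Zeb2 rose in that step as well (0.83 ± 0.24, adjusted p = 0.0439), while Hes3 and Meis1 fell. That made 2 higher and 2 lower of the 15, beside 13.2% of all tested genes called. Genes of neurons went both ways. Neurod1, a neuronal differentiation factor, fell from 6.26 ± 1.29 to 2.44 ± 0.287 CPM in Esrrb cells (adjusted p = 0.00124). Map2, a dendrite protein gene, went from 14.1 ± 1.05 to 9.51 ± 1.01 CPM (adjusted p = 0.00671). Tubb3, a tubulin gene of neurons, was at 41.7 ± 5.67, 60.15 ± 15.65 and 76.7 ± 20.9 CPM, and was called as higher in Esrrb+Nanog than in Nanog-null cells (adjusted p = 0.00408). The 13 genes of the list that were not tested, Neurog2, Olig2 and Six3 among them, averaged at most 0.338 CPM in any line. Map2, Tubb3, Irx3, Olig3 and the untested genes were named after their values were seen.

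**Figure D5:**
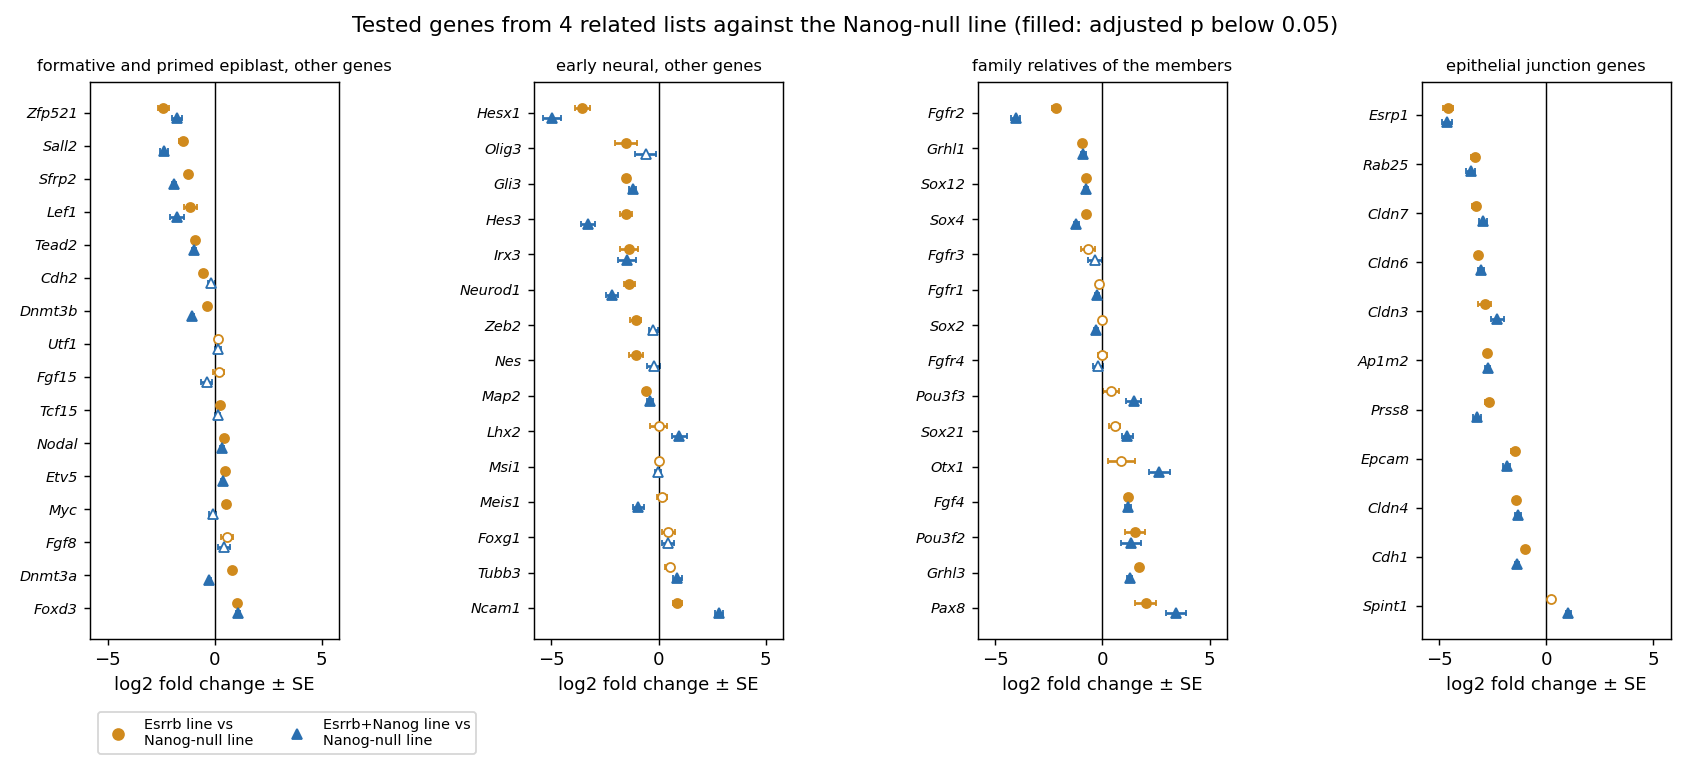
Log2 fold change with its standard error for tested genes of 4 related lists (1 of the 16 relatives is not drawn), in Esrrb cells (orange circles) and Esrrb+Nanog cells (blue triangles) against Nanog-null cells; filled symbols passed an adjusted p of 0.05. Of 11 epithelial genes 10 lie below 0 in both comparisons, while the formative list spreads to both sides.

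The genes whose profile over the 9 libraries was nearest to each of the 10 were found by the root mean square difference of centred log2 CPM, among 10519 or 10520 other genes. Otx2 was nearest to Fez1 (difference 0.23), an axon growth gene, and then to Ndufa4l2 (0.30) and Sdc4 (0.30). Pou3f1 was nearest to Tspan5 (0.22), Lrrc8c (0.23) and Slc27a2 (0.23). The loosest matches of the 10 were those of Fgf5, to Chst15 (0.57), Gpx2 (0.58) and Krt19 (0.66). Zic2 had Zic5 as its second nearest (0.29), between Tmem81 (0.27) and Ociad2 (0.31), while Zic5 was nearest to the imprinted gene Grb10 (0.24), Scrn1 (0.25) and Slc39a11 (0.25). Sox1 was nearest to Frmd4a (0.13), Ahnak (0.17) and Timp1 (0.17), and Sox3 to the netrin receptor gene Unc5b (0.16), Tuba1a (0.19) and Dusp5 (0.22). The closest match of Sox11 was the epithelial adhesion gene Epcam (0.12), then Auts2 (0.12) and Cacnb3 (0.12). Pax6 was nearest to St14 (0.15), which encodes an epithelial membrane protease, Agpat4 (0.20) and Zc3hav1l (0.20), and Grhl2 to Cxcl12 (0.31), Enpp2 (0.36) and the hedgehog receptor gene Ptch1 (0.37). With 9 libraries in 3 lines many genes share a profile, so these are descriptions.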

How the data were processed

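RNA of sorted cells was extracted as total RNA with DNase treatment, depleted of ribosomal RNA and prepared with a NEBNext kit, as the labels' protocols say. The submitters' processing notes name bcl2fastq 2.19.1, STAR 2.5.3a and the build mm10, with no role for each. The deposited values are raw read counts per Ensembl gene, 1 column per library, per the file headers. The sources used here do not give the annotation, the strand or how reads were counted. Of the table's columns 9 matched the samples by name, and 6 others were not used here.

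Symbols, positions and merged exon lengths came from GENCODE M21 (mm10). The main tool was edgeR 4.0.16 in R 4.3.3, with DESeq2 1.42.0 as an alternative. The default low-count filter of edgeR left 16198 genes. Trimmed mean of M values factors scaled the libraries, a quasi-likelihood model with line as its only term was fitted to all 9, and p-values were adjusted by Benjamini-Hochberg over all tested genes. Adjusted p-values of genes are from this test unless another is named. Standard errors are the absolute log2 change over the root of F. CPM uses those factors with no pseudocount; centred log2 CPM used a prior count of 2. No exact permutation test of 1 gene could go below 0.1 here. Replicates of a line differed by more than sampling noise, and none were identical.

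The genes and lists were chosen with earlier results of these data known. The text names all 10 genes, up to 4 called genes per list and comparison with the smallest adjusted p, the 3 nearest profiles of each of the 10, of the genes within 20 kb those with reads, the altered genes and the sorting markers; others are said to be chosen after their values were seen. Of the genes this rule names, 1 is not reported here. Alternatives were median-of-ratios factors, library totals alone, DESeq2, no filter, at least 5 CPM in 3 libraries, only the 2 lines compared, a replicate block and each library left out. The procedure was also run on simulated data with far fewer changed genes than were called here, so that run does not gauge these comparisons.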

Additional observations from a re-analysis of the deposited data

How the results depend on the processing

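Of the 10 genes, the count called in Esrrb cells against Nanog-null cells was 7 to 9 under all 16 alternatives, and in Esrrb+Nanog cells against Nanog-null cells also 7 to 9. In Esrrb+Nanog cells against Esrrb cells it was 6, and 3 with only the 2 lines compared; leaving out 1 library gave 1 to 7 of the 10 genes and 1105 to 2374 of all genes, against 2135 (1105 without Esrrb replicate 1, 1378 without Esrrb replicate 3 and 1215 without Esrrb+Nanog replicate 2). In that comparison library totals alone moved the share of higher genes among all calls from 41.2% to 59.6%. Its list counts also moved: leaving out 1 library gave 2 to 8 family relatives against 8 and 2 to 4 epithelial genes against 2. A filter of 5 CPM in 3 libraries gave 5 family relatives and 1 early neural gene against 4, only the 2 lines compared gave 4 family relatives, and no low-count filter gave 7 early neural and 4 epithelial genes. The 5 CPM filter left 6 early neural genes to test, of which 4 were called against 10 in each comparison with Nanog-null cells. Fewer genes tested is how that filter works; the cause of the other moves was not tested.

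Signs changed only for values that had missed the threshold. In Esrrb+Nanog cells against Esrrb cells, leaving out 1 library gave log2 changes of -0.55 to 1.18 for Fgf5 (-0.38, -0.09, -0.10 and -0.55 where reversed), -0.07 to 0.33 for Pou3f1 (-0.007 without Esrrb replicate 2) and 0 to 0.48 for Sox3. In Esrrb cells against Nanog-null cells, they were -0.62 to 0.049 for Zic2 and -0.10 to 0.25 for Sox1.

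The replicate number of the titles was tried as a replicate block. The labels do not tell whether the number pairs the samples, though the S numbers in the titles run in its order. Same-numbered libraries correlated by -0.025 to 0.278 in their deviations from the line means, with 0.107, 0.278 and 0.071 for replicate 2. Of 9 libraries, 4 correlated best with their own number. With the block 8, 6 and 9 of the 10 genes were called in the 3 comparisons, in place of 8, 6 and 8, and 7997, 2381 and 8946 of all genes in place of 7849, 2135 and 8816. The added call was Zic2 in Esrrb+Nanog cells against Nanog-null cells (log2 change 0.68, adjusted p = 0.0416). Depth limits Fgf5 most, at 0 to 7 counts in each library with added Esrrb.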

Other observations

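Some genes beside the 10 or in their families were low and are given as values, chosen after they were seen. Sox1ot, which overlaps the Sox1 locus on the same strand, had 1, 2 and 1 counts in Nanog-null cells, 1, 3 and 2 in Esrrb cells and 10, 7 and 12 in Esrrb+Nanog cells, the line in which Sox1 was also highest. Lhx5, a LIM homeobox gene of the anterior neural plate, was at 0 in all 3 Nanog-null libraries, 0.113 ± 0.0410 CPM (SD, n = 3) in Esrrb cells and 0.285 ± 0.0284 in Esrrb+Nanog cells. Otx1, the relative of Otx2, was at 0.146 ± 0.136, 0.289 ± 0.0726 and 1.00 ± 0.243 CPM in the 3 lines. It had enough reads for the test only in Esrrb+Nanog cells, so its call as higher there was a condition of its being tested. The counts of Paupar, a noncoding RNA beside Pax6, were 1, 1 and 2 in Nanog-null cells and 0 in the others.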
